A study of Mus musculus with 75 samples.

Results

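The 10 genes Atf4, Atf3, Ddit3, Trib3, Chac1, Asns, Psat1, Phgdh, Sesn2 and Fgf21 belong to the ATF4 pathway of the integrated stress response and were picked by gene symbol from the 55536 genes of the table. Their RNA was counted by RNA sequencing of liver in 75 libraries from C57Bl/6 mice, all labelled male. The dams of the exposed mice received the organotin tributyltin (TBT) in their drinking water, at a daily 0.5 mg per kg of body weight (3.07 µM) until the pups were weaned, so the offspring took it up through their mothers. At 3 weeks of age there were 7 vehicle samples and 8 TBT samples. The 5-month livers were 8 of vehicle mice and, of TBT mice, 16 labelled low-risk and 10 labelled high-risk. How a mouse of that age was assigned its risk is not given in the labels, and if expression values were used for it, the comparisons by risk at 5 months would not be independent of them. At 10 months there were 6 vehicle samples, 5 low-risk TBT samples, 5 samples of uninvolved liver from high-risk TBT mice and 7 tumors of TBT mice, beside 1 vehicle library labelled as a tumor that entered no comparison. No genotype other than the strain is given for any group, and the labels do not tie mice to litters. The p-values therefore measure the spread between these samples, and litter mates cannot be told apart from unrelated mice.

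The integrated stress response is a shared answer of cells to several kinds of stress. Kinases that sense unfolded protein in the endoplasmic reticulum (PERK), missing amino acids (GCN2), haem shortage or mitochondrial trouble (HRI) and double-stranded RNA (PKR) phosphorylate the initiation factor eIF2, which slows translation as a whole while the messenger RNA of the transcription factor ATF4 is translated more. Much of ATF4's regulation therefore lies in translation, which RNA sequencing does not measure. ATF4 then raises transcription of amino acid synthesis and transport genes, of further transcription factors and of feedback inhibitors, and in liver also of the hormone gene Fgf21.

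All 10 symbols had an identifier in the table, and each passed the filter on low counts in every comparison. On GRCm38 with GENCODE M21, Atf4 lies at chr15:80255184-80257541 (plus strand), Atf3 at chr1:191170296-191218039 (minus), Ddit3 at chr10:127290774-127296288 (plus), Trib3 at chr2:152337422-152344032 (minus) and Chac1 at chr2:119351229-119354381 (plus). Asns lies at chr6:7675169-7693254 (minus), Psat1 at chr19:15904678-15947337 (minus), Phgdh at chr3:98313170-98339990 (minus), Sesn2 at chr4:132492032-132510501 (minus) and Fgf21 at chr7:45613886-45615490 (minus). The values are counts over whole gene models, so they cover exons and untranslated regions together. Ddit3 has a second identifier that held 0 counts in every library, and 105 of the 1713 exonic bases of the identifier used here overlap it on the same strand. The processed pseudogene Phgdh-ps1 held 22 counts over all libraries against 1963 for Phgdh.

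ATF4 binds DNA together with C/EBP proteins at a composite element whose core was searched as TGATGNAA on both strands of the RefSeq promoters of GRCm38.p6 (250 bases before to 50 after the start of transcription, 300 in all). Of the 10 genes, 5 held a match, against 3.97% of 32817 promoters. The promoters of Atf3, Chac1, Asns and Fgf21 are shown because the match lies upstream of the start in these genes, and because they differ in whether the RNA moved with the risk label. Each run gives the 250 upstream bases 5′ to 3′ on the gene's strand, with the match in capitals. The windows are chr1:191183334-191183583 (minus) for Atf3, which lies within the GENCODE span of that gene, chr2:119350992-119351241 (plus) for Chac1, chr6:7693210-7693459 (minus) for Asns and chr7:45615491-45615740 (minus) for Fgf21.
Atf3: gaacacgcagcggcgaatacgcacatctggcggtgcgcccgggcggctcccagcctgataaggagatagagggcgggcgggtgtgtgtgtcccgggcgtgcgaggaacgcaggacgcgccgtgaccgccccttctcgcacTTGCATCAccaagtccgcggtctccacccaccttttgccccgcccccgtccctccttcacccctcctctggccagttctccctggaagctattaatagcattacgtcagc
Chac1: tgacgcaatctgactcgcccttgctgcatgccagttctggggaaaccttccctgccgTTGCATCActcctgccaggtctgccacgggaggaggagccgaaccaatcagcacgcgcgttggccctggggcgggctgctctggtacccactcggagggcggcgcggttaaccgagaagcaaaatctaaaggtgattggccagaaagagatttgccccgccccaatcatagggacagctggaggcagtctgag
Asns: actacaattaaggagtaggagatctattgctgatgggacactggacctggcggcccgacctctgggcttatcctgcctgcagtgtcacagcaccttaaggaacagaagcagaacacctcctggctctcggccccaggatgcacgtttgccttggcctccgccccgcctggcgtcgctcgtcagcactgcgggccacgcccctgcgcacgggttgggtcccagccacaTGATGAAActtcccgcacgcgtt
Fgf21: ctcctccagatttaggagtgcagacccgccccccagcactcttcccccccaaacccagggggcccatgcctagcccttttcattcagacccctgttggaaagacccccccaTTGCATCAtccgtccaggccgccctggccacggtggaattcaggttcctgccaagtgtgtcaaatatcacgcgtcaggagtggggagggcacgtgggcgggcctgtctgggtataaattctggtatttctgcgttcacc
Counted from 0 at the first transcribed base, the match starts at -110 in Atf3, -193 in Chac1, -139 in Fgf21 and -23 in Asns. The first 3 carry TTGCATCA, the reverse complement of the element, and Asns carries TGATGAAA. In Trib3 the match TTACATCA starts at 14, inside the transcript. Atf4, Ddit3, Psat1, Phgdh and Sesn2 held no match in this window, where Psat1 was searched at 2 start sites. The cAMP response element TGACGTCA, found in 1.79% of promoters, and the endoplasmic reticulum stress element, found in 0.119%, matched none of the 10. A match is a description of these letters and not a binding site.

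Total counts ran from 2.83 to 45.5 M per library. Levels are counts per M counts (CPM) after TMM scaling, which corrects the library size for differences in composition. The TMM factors were higher in high-risk liver at 5 months (0.995 to 1.43) than in low-risk liver (0.882 to 1.01), and the scaling moved the median log2 change of all genes between these groups from 0.30 to -0.01. For this reason each call of the 10 genes that depends on the scaling is given in the comparisons of high-risk livers, uninvolved livers, tumors and ages with its value under total counts. Of the libraries, 6 deviated technically (fewer than 5 M counts in total, more than 35000 genes with a count, or a mitochondrial share above 10%), among them high-risk 10 and 15, low-risk 16 and vehicle 9 of 5 months. The library labelled 3-week TBT 4 was high in the female transcript Xist (348 CPM), and its Y-linked genes summed to 7.08 CPM, where every other library had at least 93.95 CPM of them. Low-risk 24 of 5 months held 84.6 CPM of Xist (group median 0.352) beside 237 CPM of Y-linked genes, and 1 tumor reached 8.39 CPM of Xist. Uninvolved libraries 3 and 6 of 10 months were closer to each other (mean chi-square 4.19 per gene) than the next closest pair of any group (16.65) and were counted as 1 sample, as were 2 libraries of vehicle mouse 3 of 3 weeks. All 6 hepatocyte markers (among them Alb, Apoa1 and Ttr) were detected in every group.

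Per kb of exon, the levels of the 10 genes spanned a wide range in the low-risk livers of 5 months. Atf4 was the highest, with a median of 30.3 CPM per kb, followed by Fgf21 at 8.45 and Sesn2 at 3.02. Trib3, Ddit3 and Chac1 followed at 2.88, 2.46 and 1.90 CPM per kb. The amino acid synthesis genes stood at the low end, with Asns at 0.765, Psat1 at 0.309 and Phgdh at 0.187, next to Atf3 at 0.624. The last 3 genes were therefore read from few fragments: Psat1 had 5 to 34 reads and Phgdh 1 to 23 reads per low-risk sample. The plot of CPM by sample shows all 10 genes in the 9 groups.

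**Figure D1:**
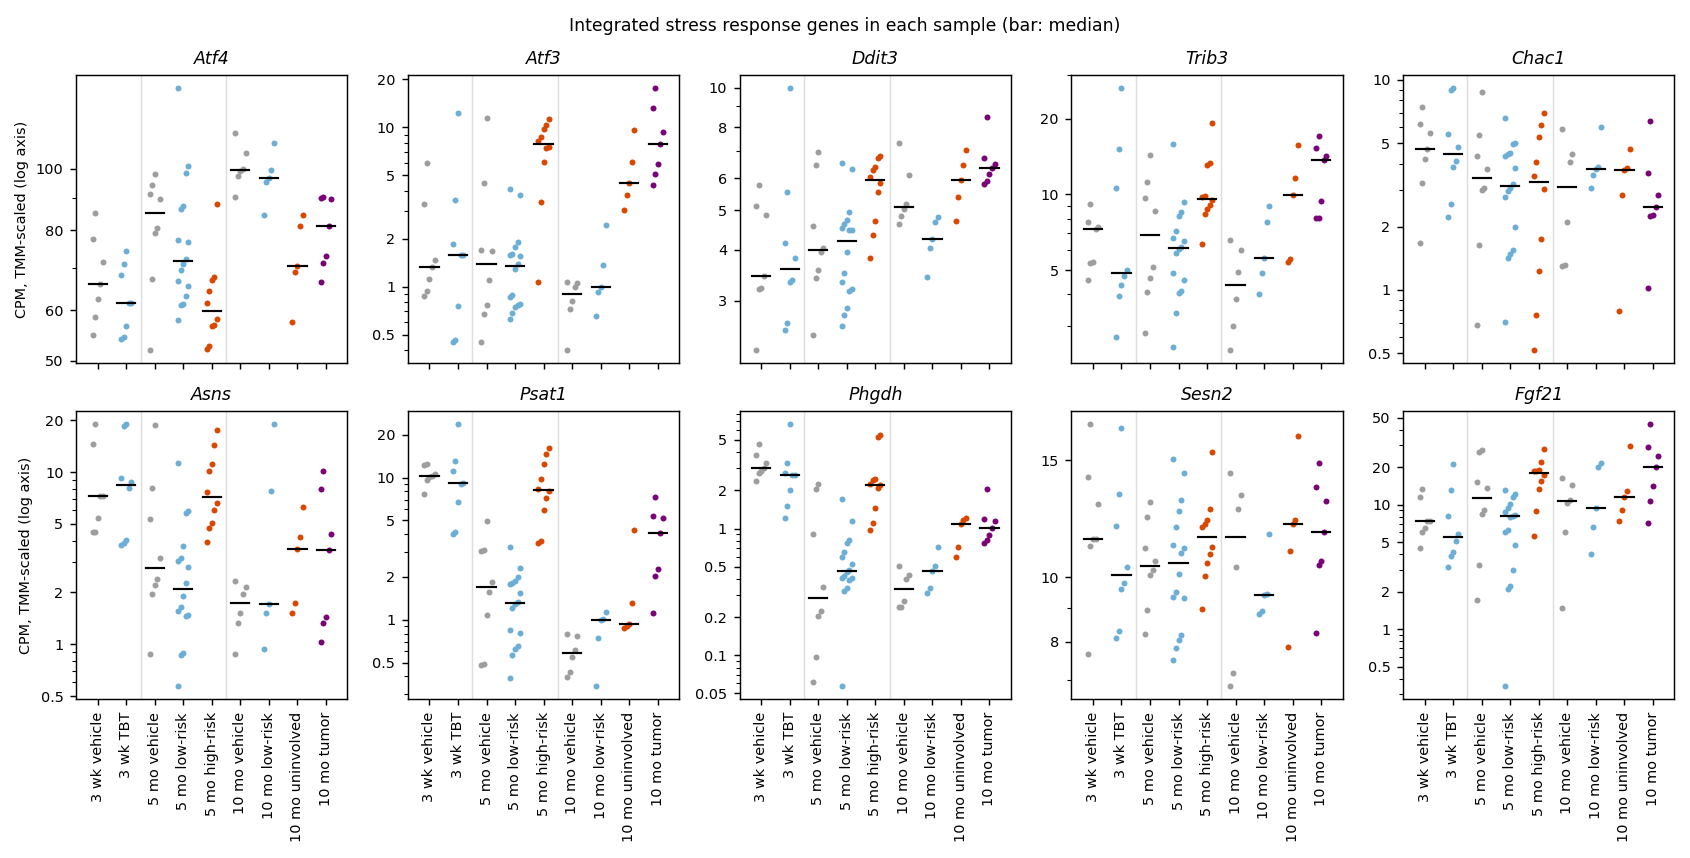
Level of each of the 10 genes in every sample, as TMM-scaled CPM on a log axis, by age and group; points are samples and the bar is the group median. At 5 months all high-risk points of Psat1 lie above all low-risk points, with medians of 8.11 and 1.31 CPM, whereas Atf4 has its lower median, 59.9 against 71.5 CPM, in the high-risk group.

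Within TBT livers of 5 months, high-risk and low-risk mice were compared to ask how the pathway differs with the tumor risk label before 10 months of age. The serine synthesis genes Psat1 and Phgdh, the transcription factor Atf3, the asparagine synthetase Asns and the hormone Fgf21 were higher in high-risk livers, by 2.37- to 6.64-fold. Trib3 and Ddit3 rose less, by 1.72- and 1.38-fold. The RNA of Atf4 itself fell, to 0.802 of the low-risk level, and Chac1 and Sesn2 did not pass the test. Thus 7 of 10 genes were called higher, where 20.3% of all 14773 genes tested were, and 1 was called lower, where 18.5% were (edgeR quasi-likelihood test, Benjamini-Hochberg adjusted p under 0.05). The median log2 fold change of the 10 was 1.02, against -0.01 for all genes tested.

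Among the transcription factors, Atf4 ran from 52.3 to 87.9 CPM in high-risk livers (median 59.9) and from 57.9 to 134 CPM in low-risk livers (median 71.5). The groups overlapped, and 4 of 10 high-risk livers were below every low-risk one. The change was -0.32 ± 0.11 (log2 fold change ± SE, adjusted p = 0.0248) with TMM scaling, but -0.00 with an adjusted p of 0.984 under total counts, so the direction of Atf4 rested on the scaling. Without the filter on low counts, which raises the number of genes tested, the calls of Atf4 (adjusted p = 0.0728) and of Ddit3 (adjusted p = 0.0943) were lost. Without low-risk 24, the library with Xist counts, Atf4 had -0.23 (adjusted p = 0.0531) and was not called, and the 7 genes called higher all passed.

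Atf3, an early stress-induced factor of the same bZIP family, ran from 1.07 to 11.3 CPM in high-risk livers (median 7.85) and from 0.627 to 4.08 in low-risk livers (median 1.34). High-risk liver 1, at 1.07 CPM, sat among the low-risk livers, the next lowest high-risk liver had 3.39 CPM, and the other 8 were above every low-risk liver. The log2 fold change was 2.36 ± 0.41 (adjusted p = 2.6e-05). Ddit3, which encodes the cell death factor CHOP, had medians of 5.93 and 4.21 CPM with ranges that overlapped widely, 3.81 to 6.80 against 2.60 to 6.53, and rose by 0.46 ± 0.16 on the log2 scale (adjusted p = 0.0235).

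Trib3, a pseudokinase that damps ATF4 and AKT signalling, ran from 6.35 to 19.3 CPM in high-risk livers (median 9.64) and from 2.48 to 15.8 in low-risk livers (median 6.13). The groups overlapped, with 1 high-risk liver above all low-risk ones. The change was 0.78 ± 0.24 (adjusted p = 0.00935). Chac1, a glutathione-degrading enzyme and a usual marker of ATF4 activity, had nearly equal medians of 3.25 and 3.12 CPM. Its ranges, 0.516 to 6.93 and 0.704 to 6.59 CPM, covered each other, and the log2 difference was -0.00 ± 0.35 (adjusted p = 0.993).

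Of the amino acid synthesis genes, Psat1, which makes phosphoserine on the path to serine, was the gene whose groups did not overlap. It ran from 3.46 to 16.1 CPM in high-risk livers (median 8.11) and from 0.391 to 3.24 in low-risk livers (median 1.31), with 50 to 196 reads per high-risk sample. All 10 high-risk livers lay above all 16 low-risk livers, as was the case for 1.25% of genes tested, and the log2 fold change was 2.73 ± 0.33 (adjusted p = 1.87e-07).

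Phgdh, the first enzyme of serine synthesis, ran from 0.968 to 5.49 CPM (median 2.22) against 0.0569 to 1.70 (median 0.465), with 14 to 75 reads per high-risk sample. Of the high-risk livers, 7 were above every low-risk liver, and the change was 2.09 ± 0.43 (adjusted p = 0.000223). Asns, which makes asparagine, had a wider spread, from 3.94 to 17.6 CPM (median 7.14) in high-risk and from 0.569 to 11.3 CPM (median 2.09) in low-risk livers. Here 2 high-risk livers exceeded all low-risk ones, and the change was 1.57 ± 0.43 (adjusted p = 0.00379).

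Of the remaining members, Fgf21, a hormone that liver secretes under metabolic stress, ran from 5.64 to 28.1 CPM in high-risk livers (median 17.9) and from 0.347 to 13.2 CPM in low-risk livers (median 8.04). The high-risk values were above every low-risk value in 8 of 10 livers, and the change was 1.25 ± 0.36 (adjusted p = 0.00591). Sesn2, a leucine sensor that restrains mTORC1, was level, with medians of 11.5 and 10.5 CPM. Its change of 0.14 ± 0.11 (adjusted p = 0.34) became 0.46 (adjusted p = 0.00238) under total counts.

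Sequencing batch 1 held 3 high-risk and 6 low-risk livers, and batch 2 held 7 and 10. Within batch 2 the changes of Psat1 (2.51, adjusted p = 3.01e-06), Atf3 (2.25, adjusted p = 0.000197), Phgdh (1.92, adjusted p = 0.000249), Asns (1.72, adjusted p = 0.00322), Fgf21 (1.25, adjusted p = 0.00542) and Trib3 (1.08, adjusted p = 0.000956) passed the test. Within batch 1 the change of Psat1 was 3.14 (adjusted p = 0.0142). Atf3 had 2.52 there (adjusted p = 0.0671), Phgdh 2.41 (adjusted p = 0.146), Asns 1.21 (adjusted p = 0.458) and Fgf21 1.19 (adjusted p = 0.375), and Trib3 had 0.22 (adjusted p = 0.837), none of which passed. Ddit3 and Atf4 kept their sign in both batches without passing in either, at 0.56 and -0.25 in batch 1 (adjusted p = 0.325 and 0.448) and 0.42 and -0.36 in batch 2 (adjusted p = 0.11 and 0.0913).

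Markers of other cells differed between the same livers. The summed level of 8 stellate cell and fibroblast markers ran from 365 to 1159 CPM in high-risk livers and from 221 to 438 CPM in low-risk livers, with 6 of 8 called higher and 1 lower. That of 5 cholangiocyte markers ran from 32.8 to 350 against 27.3 to 221 CPM (4 of 5 higher), and that of 8 proliferation genes from 35.04 to 296 against 8.76 to 48.8 CPM (8 of 8 higher). The 6 hepatocyte markers summed to 57140 to 162600 CPM against 73150 to 168700 CPM (1 higher, 3 lower), and no marker of these lists was at 0 in either group. The part of these cells in the changes of the 10 genes was not tested, and in bulk tissue fewer cells of a type cannot be told apart from less RNA per cell.

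**Figure D2:**
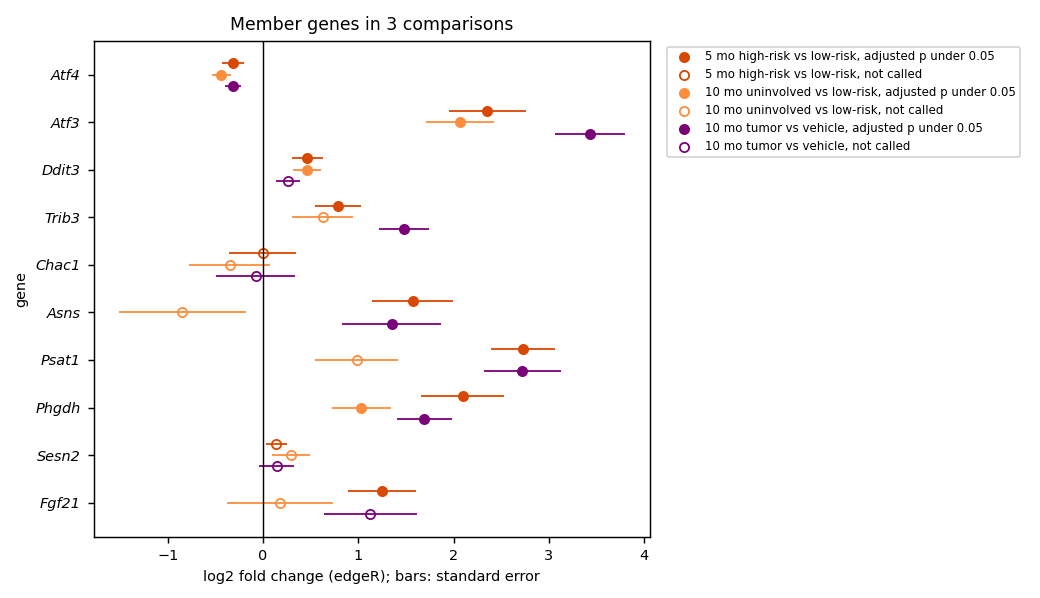
Log2 fold change of each gene with its standard error in high-risk against low-risk liver of 5 months, uninvolved against low-risk liver of 10 months, and tumors against vehicle liver of 10 months; filled points passed the test. Atf3 and Phgdh are to the right of 0 and filled in each comparison, from 2.07 to 3.43 and from 1.03 to 2.09, while Atf4 lies to the left of 0, from -0.44 to -0.32, with TMM scaling.

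Other genes of the pathway moved unevenly in the same comparison. Of 16 further ATF4 targets, 10 were called higher and 0 lower, with a median log2 change of 0.55. Slc7a11, the cystine importer, ran from 0.415 to 33.8 CPM in high-risk livers (median 16.6) and from 0 to 0.676 CPM in low-risk livers (median 0.154). Nupr1, a stress-induced chromatin protein, rose by 2.21 ± 0.36 (adjusted p = 1.04e-05), the secreted glycoprotein gene Stc2 by 2.75 ± 0.52 (adjusted p = 7.47e-05) and the lipoprotein receptor gene Vldlr by 1.71 ± 0.35 (adjusted p = 0.000238). Within batch 1 alone, 1 of these targets was called higher, and within batch 2 alone 8 of the 14 tested.

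The serine and one-carbon enzymes split by direction, with 3 of 8 higher, 3 lower and a median of 0.66. The mitochondrial folate enzyme genes Mthfd1l (3.03 ± 0.46, adjusted p = 4.7e-06) and Mthfd2 (1.66 ± 0.30, adjusted p = 4.23e-05; chosen after its values were seen) and the mitochondrial PEP carboxykinase gene Pck2 (1.47 ± 0.21, adjusted p = 1.92e-06) were higher. The cytosolic folate enzyme genes Shmt1 (-1.11 ± 0.16, adjusted p = 1.54e-06) and Mthfd1 (-0.68 ± 0.12, adjusted p = 3.31e-05) were lower, and so was the mitochondrial Shmt2 (-0.60 ± 0.13, adjusted p = 0.000387; also chosen after its values were seen). Psat1 and Phgdh thus rose together with some of the one-carbon enzymes while others of that list fell. The serine enzyme gene Psph of the list (chosen after its values were seen) was not called. It had 0.51 (adjusted p = 0.54) within batch 1 and 0.36 (adjusted p = 0.31) within batch 2.

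Endoplasmic reticulum chaperones and genes of the IRE1 and ATF6 arms went the other way: 12 of 14 were called lower and 0 higher, with a median of -0.86. The chaperone gene Calr ran from 317 to 692 CPM in high-risk livers (median 436) and from 623 to 1183 CPM in low-risk livers (median 848), and fell by 0.85 ± 0.16 on the log2 scale (adjusted p = 5.38e-05). Edem1, which takes part in the disposal of misfolded glycoproteins, fell by 0.66 (adjusted p = 7.66e-05), Sdf2l1 by 1.66 ± 0.32 (adjusted p = 0.00011) and the disulfide isomerase gene Pdia4 by 0.96 (adjusted p = 0.000112). Under total counts 10 of the 14 were called lower, with a median of -0.55, and in batch 2 alone 12 were, while in batch 1 alone 0 were called at a median of -0.62.

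Of the 13 cytosolic tRNA synthetase genes, many of which are ATF4 targets, 3 were higher and 3 lower at a median of -0.00, and this split became 7 higher and 0 lower under total counts. Lars, Gars and Iars rose by 0.38 (adjusted p = 0.0104), 0.36 (adjusted p = 0.0152) and 0.32 (adjusted p = 0.0226), and Aars fell by 0.47 (adjusted p = 0.0029), or by 0.15 without passing under total counts (adjusted p = 0.302). Upstream, the list of eIF2 kinases, phosphatase subunits and eIF2B subunits had 1 higher and 3 lower of 13 at a median of 0.01, or 7 higher and 1 lower under total counts. The GCN2 inhibitor gene Impact rose by 0.76 ± 0.13 (adjusted p = 1.94e-05) and the constitutive phosphatase subunit gene Ppp1r15b fell by 0.58 ± 0.10 (adjusted p = 2.19e-05). Eif2b1 fell by 0.27 (adjusted p = 0.0265) and Eif2b4 by 0.44 (adjusted p = 0.0496), and under total counts these had 0.04 (adjusted p = 0.769) and -0.13 (adjusted p = 0.562), while Ppp1r15b still fell, by 0.28 (adjusted p = 0.0215). Of 6 mitochondrial proteases and chaperones, Clpp and Oma1 were called lower, but had -0.20 (adjusted p = 0.395) and 0.04 (adjusted p = 0.748) under total counts, where 2 of the list were called higher and 0 lower.

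Downstream of Fgf21, its co-receptor gene Klb was lower by 1.07 ± 0.21 (log2, adjusted p = 0.000165) in high-risk livers, with 13.9 to 59.9 CPM against 22.1 to 84.2 CPM. The receptor genes Fgfr1 (0.93 ± 0.24, adjusted p = 0.0025), Fgfr2 (0.46 ± 0.11, adjusted p = 0.00131) and Fgfr3 (0.42 ± 0.16, adjusted p = 0.0383) were higher, and Fgfr4, the receptor typical of hepatocytes, had -0.30 without passing the test, or 0.00 under total counts. Of the targets of other factors that also act on members, the PPARα list had 3 higher and 1 lower of 8, the NRF2 list 4 higher and 0 lower of 6, and the p53 list 6 higher of 6. Among these, Cyp4a14, Nqo1 and Cdkn1a rose by 2.21, 1.66 and 2.47 on the log2 scale.

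**Figure D3:**
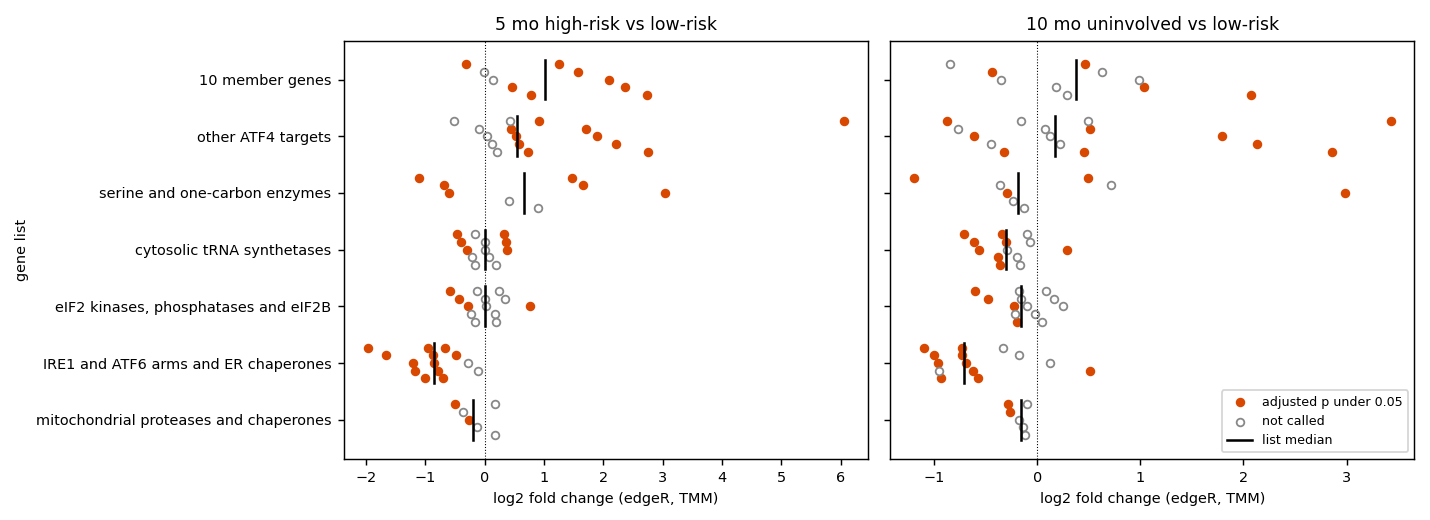
Log2 fold change of every tested gene of 7 lists in high-risk against low-risk liver of 5 months and in uninvolved against low-risk liver of 10 months; filled points passed the test and the bar is the list median. The 10 genes have medians of 1.02 and 0.38, and the IRE1, ATF6 and chaperone list lies to the left of 0 with medians of -0.86 and -0.71.

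Against vehicle livers of 5 months, high-risk livers differed in fewer genes of the pathway. Psat1, Phgdh and Atf3 were higher and Atf4 was lower, so 3 of 10 were called higher, where 8.47% of genes were, and 1 lower, where 7.38% were. Psat1 ran from 0.481 to 4.98 CPM in vehicles (median 1.71), and 8 of 10 high-risk livers exceeded them all, for a change of 2.14 ± 0.46 (adjusted p = 0.0019). Phgdh changed by 1.84 ± 0.61 (adjusted p = 0.0348), with 4 high-risk livers above all vehicles.

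Vehicle liver 6 stood apart from its group. It held 11.5 CPM of Atf3, above every high-risk liver, with vehicle 4 next at 4.45 CPM. In Asns it held 18.9 CPM, where vehicle 4 had 8.14 CPM and the median was 2.78. The change of Atf3 was 1.63 ± 0.55 (adjusted p = 0.0381), and that of Asns, 0.76 ± 0.57 (adjusted p = 0.385), did not pass. Without vehicle 6 the change of Atf3 was 2.44 (adjusted p = 0.000946), that of Phgdh 2.47 (adjusted p = 0.00541) and that of Asns 1.35 (adjusted p = 0.0807). Atf4 changed by -0.47 ± 0.15 (adjusted p = 0.0281), which became -0.09 (adjusted p = 0.611) under total counts. Trib3 (0.64), Ddit3 (0.36), Fgf21 (0.29), Sesn2 (0.16) and Chac1 (-0.52) did not pass with TMM scaling, while under total counts Trib3, Ddit3 and Sesn2 did, with adjusted p-values of 0.0199, 0.0195 and 0.0135. All genes called split into 1251 higher and 1090 lower with TMM scaling and into 4627 higher and 320 lower under total counts.

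Batch 2 held 1 vehicle, so these comparisons could be repeated within batch 1 alone. Within batch 1, with 3 high-risk livers and 7 vehicles, Psat1 had 2.10 (adjusted p = 0.144), Phgdh 1.69 (adjusted p = 0.458), Atf3 1.50 (adjusted p = 0.41) and Atf4 -0.54 (adjusted p = 0.169), and none passed. The calls of Phgdh and Atf3 were also lost without the filter on low counts (adjusted p = 0.059 and 0.157) and in a fit of only these groups (adjusted p = 0.0752 and 0.0847), as was that of Atf3 without the deviating libraries (adjusted p = 0.0786). Atf4 was lost without the filter and in the fit of only these groups (adjusted p = 0.124 and 0.102) and without the batch covariate (adjusted p = 0.0656). Stellate cell and fibroblast markers summed to 113 to 431 CPM in vehicles, below the high-risk median of 727 CPM (5 of 8 higher), and their part in these changes was not tested.

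Low-risk livers and vehicles of 5 months did not separate in the pathway. By edgeR 0 of 10 genes were called, as were 0 of all genes tested (0% of 14773), with 1 of the 10 and 934 of all genes at an unadjusted p under 0.05. DESeq2 called 0 of the 10 and 52 of all. The largest difference was in Fgf21, at -0.95 ± 0.45 (adjusted p = 0.771), from a median of 8.04 CPM in low-risk against 11.3 CPM in vehicle livers with overlapping ranges.

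In the uninvolved livers of 10-month mice, Atf3 and Phgdh were higher than in low-risk livers of that age, Ddit3 rose slightly and Atf4 fell. The genes called higher were 3 of 10, where 27.7% of all 16338 genes tested were, and 1 was called lower, where 24.7% were, so the count lay near the background. The median of the 10 was 0.38, against 0.05 for all genes. Asns, Fgf21, Trib3 and Chac1 did not pass the test. The uninvolved libraries also stood apart technically: their mitochondrial share was 4.20 to 5.845% and their genes with a count numbered 24676 to 28715, against 2.94 to 3.08% and 21663 to 22578 in low-risk livers and 3.14 to 3.83% and 21078 to 22006 in vehicles. The part of this difference in the results was not tested.

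Atf3 was at 3.04, 3.78, 4.46, 6.06 and 9.64 CPM in the 5 uninvolved livers and at 0.652, 0.929, 0.996, 1.36 and 2.43 CPM in the 5 low-risk livers. The groups did not overlap, as for 14.8% of genes tested in this direction, and the change was 2.07 ± 0.36 (adjusted p = 0.000165). Atf4 was at 57.6, 68.8, 70.3, 81.2 and 84.6 CPM in uninvolved and at 84.7, 95.2, 96.8, 99.6 and 109.5 CPM in low-risk livers. All uninvolved livers were below all low-risk ones, as for 15% of genes tested, the nearest by a small margin, and the change was -0.44 ± 0.10 (adjusted p = 0.00167), or -0.20 (adjusted p = 0.0377) under total counts.

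Ddit3 was at 4.71, 5.38, 5.94, 6.47 and 7.03 CPM in uninvolved and at 3.43, 4.04, 4.24, 4.69 and 4.82 CPM in low-risk livers. The lowest uninvolved liver, sample 3-6, fell among the low-risk livers, and the change was 0.46 ± 0.15 (adjusted p = 0.0146). Trib3 ran from 5.37 to 15.7 CPM against 4.03 to 8.98 CPM, overlapped, and had 0.63 (adjusted p = 0.111), or 0.86 (adjusted p = 0.0284) under total counts and 0.78 (adjusted p = 0.0488) without uninvolved liver 5. Chac1 was -0.35 (adjusted p = 0.5) with full overlap.

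Phgdh was at 0.599, 0.716, 1.09, 1.17 and 1.21 CPM in uninvolved and at 0.309, 0.337, 0.465, 0.505 and 0.717 CPM in low-risk livers. Of the uninvolved livers, 3 were above all low-risk ones, and the change was 1.03 ± 0.31 (adjusted p = 0.0101). Psat1 was at 0.869, 0.905, 0.932, 1.30 and 4.28 CPM in uninvolved and at 0.341, 0.739, 0.996, 1.01 and 1.13 CPM in low-risk livers. Here 3 uninvolved livers lay within the low-risk range and sample 3-6 stood far above the others. The change of 0.98 ± 0.43 (adjusted p = 0.0654) missed the threshold, and without sample 3-6 it was 0.25 (adjusted p = 0.515). It passed without uninvolved liver 1, 5 or 7 (adjusted p = 0.0409, 0.0424 and 0.0366), with libraries 3 and 6 as separate samples (1.29, adjusted p = 0.0249) and under total counts (1.20, adjusted p = 0.026).

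Asns had its 2 highest values in low-risk livers 8 and 2, at 18.9 and 7.76 CPM, above the uninvolved range of 1.51 to 6.28 CPM, while the other 3 low-risk livers had 0.933 to 1.70 CPM. Its change of -0.85 ± 0.67 (adjusted p = 0.294) did not pass. Fgf21 ran from 7.33 to 29.6 CPM in uninvolved and from 4.02 to 21.5 CPM in low-risk livers, and Sesn2 from 7.87 to 16.3 against 8.79 to 11.6 CPM. Neither passed with TMM scaling (0.18, adjusted p = 0.806, and 0.29, adjusted p = 0.234), but Sesn2 did under total counts (0.53, adjusted p = 0.0293).

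Against vehicle livers of 10 months, uninvolved livers had 4 of 10 genes called higher, where 31.2% of genes were, and 1 lower, where 26.5% were. Atf3 ran from 0.399 to 1.07 CPM in vehicles (median 0.907), Psat1 from 0.399 to 0.796 CPM (median 0.584) and Phgdh from 0.239 to 0.508 CPM (median 0.334). In these 3 genes all 5 uninvolved livers were above all 6 vehicles, as for 15.7% of genes tested, and in Atf4 all 5 were below all 6, as for 15%. The changes were 2.67 ± 0.35 for Atf3 (adjusted p = 7.97e-06), 1.45 ± 0.30 for Phgdh (adjusted p = 0.000635), 1.49 ± 0.42 for Psat1 (adjusted p = 0.00657), 1.11 ± 0.31 for Trib3 (adjusted p = 0.00596) and -0.49 ± 0.10 for Atf4 (adjusted p = 0.000366). Under total counts Atf4 had -0.18 (adjusted p = 0.0437), and Ddit3 (0.41, adjusted p = 0.0298) and Sesn2 (0.45, adjusted p = 0.0458) passed as well. When the vehicle library with the tumor label joined the vehicles, the calls of Psat1 (1.03, adjusted p = 0.103) and Atf4 (-0.38, adjusted p = 0.0763) were lost.

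Of the wider pathway in uninvolved against low-risk livers, 6 of 16 further ATF4 targets were higher and 3 lower, at a median of 0.17. Of the IRE1, ATF6 and chaperone genes 9 of 14 were lower and 1 higher, at -0.71. Among all genes tested, 27.7% were higher and 24.7% lower. Both list counts changed under total counts. Of the chaperone list, Ern1 (0.36, adjusted p = 0.00199) and Dnajb9 (0.75, adjusted p = 0.00278) were then higher. Edem1 was lower (-0.50, adjusted p = 0.00012), and Xbp1 did not pass (-0.40, adjusted p = 0.072). Ern1, Dnajb9 and Xbp1 were chosen after their values were seen. With TMM scaling Stc2 (3.43 ± 0.42, adjusted p = 6.73e-06) and Mthfd1l (2.98 ± 0.25, adjusted p = 1.26e-07) were higher. Shmt1 (-1.20 ± 0.12, adjusted p = 1.37e-06) and Klb (-1.09 ± 0.14, adjusted p = 1.43e-05) were lower. Of the tRNA synthetase genes 7 of 13 were lower and 1 higher, or 3 lower and 1 higher under total counts. Cholangiocyte markers summed to 105 to 209 CPM in uninvolved and to 37.2 to 59.8 CPM in low-risk livers (5 of 5 higher), stellate and fibroblast markers to 315 to 572 against 230 to 366 CPM (5 of 8 higher, 1 lower), and proliferation genes to 17.4 to 110 against 8.20 to 15.6 CPM (8 of 8 higher). Their part in the changes was not tested.

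The same risk contrast was available at 5 and at 10 months, and its difference between the ages was tested as an interaction. Of the 10 genes 0 passed, against 0.353% of 17572 genes (edgeR), with 2 of the 10 at an unadjusted p under 0.05 and 0 called by DESeq2. Asns had the largest difference, -2.41 ± 0.83 (adjusted p = 0.212), from 1.57 at 5 months to -0.85 at 10 months. Psat1 followed with -1.75 ± 0.60 (adjusted p = 0.207), and it passed without uninvolved sample 3-6 (-2.48, adjusted p = 0.045). At 10 months the group is uninvolved liver of tumor-bearing mice, whereas the labels of 5 months do not say which part of the liver was taken. Age and tissue sampling therefore cannot be told apart in this contrast.

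In tumors, 5 of 10 genes were higher than in vehicle livers of the same age, where 24.8% of all 15293 genes tested were, and 1 was lower, where 21% were. Atf3 ran from 4.35 to 17.8 CPM in the 7 tumors (median 7.87), Trib3 from 8.02 to 17.1 CPM (median 13.7), Psat1 from 1.11 to 7.30 CPM (median 4.06) and Phgdh from 0.763 to 2.03 CPM (median 1.01). In these 4 genes every tumor was above every vehicle liver, as for 10.8% of genes tested. The changes were 3.43 ± 0.36 for Atf3 (adjusted p = 1.12e-05), 2.72 ± 0.40 for Psat1 (adjusted p = 0.000106), 1.69 ± 0.29 for Phgdh (adjusted p = 0.000311) and 1.48 ± 0.26 for Trib3 (adjusted p = 0.000375).

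Asns ran from 1.03 to 10.2 CPM in tumors, with 4 of 7 above the vehicle range of 0.883 to 2.32 CPM, and rose by 1.35 ± 0.52 (adjusted p = 0.0466), a call lost without the filter on low counts (adjusted p = 0.121), in a fit of all 10-month groups (adjusted p = 0.112) and when the vehicle library with the tumor label joined the vehicles (adjusted p = 0.178). Fgf21 ran from 7.13 to 44.7 CPM, with 4 of 7 tumors above all vehicles, and its change of 1.12 ± 0.49 (adjusted p = 0.0762) became 1.42 (adjusted p = 0.03) under total counts. Atf4 ran from 66.5 to 90.3 CPM in tumors and from 90.3 to 113.5 CPM in vehicles, nearly touching but without overlap, as for 9.54% of genes tested, and changed by -0.32 ± 0.08 (adjusted p = 0.00618), but by -0.02 (adjusted p = 0.887) under total counts and by -0.25 (adjusted p = 0.232) with that library among the vehicles. Ddit3 had 0.27 (adjusted p = 0.0971), which passed under total counts (0.56, adjusted p = 0.00353), and Sesn2 and Chac1 had 0.14 and -0.08.

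Slc7a11 ran from 2.35 to 99.2 CPM in tumors, was at 0 in 4 of 6 vehicle livers and reached 0.0423 CPM in the highest. With TMM scaling the further ATF4 targets had 7 of 16 higher and 0 lower at a median of 0.36. The serine and one-carbon enzymes had 4 higher and 2 lower of 8 at 0.81. Under total counts Shmt1 of that list was lower (-0.68, adjusted p = 0.000182), while Mthfd1 had -0.11 without passing (adjusted p = 0.331). The IRE1, ATF6 and chaperone list had 0 higher and 5 lower at -0.35 with TMM scaling but 2 higher and 0 lower under total counts. Cholangiocyte markers summed to 145 to 768 CPM in tumors against 38.0 to 54.0 CPM in vehicles (5 of 5 higher), stellate and fibroblast markers to 315 to 581 against 193 to 305 CPM (5 of 8 higher, 1 lower), and hepatocyte markers to 63130 to 106000 against 103900 to 130900 CPM (4 of 6 lower). Proliferation genes summed to 15.8 to 168 against 5.92 to 21 CPM (8 of 8 higher, median log2 change 3.27), and T and NK cell markers to 4.69 to 14.7 against 2.71 to 4.69 CPM (4 of 6 higher). Their part in the changes was not tested.

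Between tumors and uninvolved liver, edgeR called 0 of the 10 genes, where 7.55% of all 16362 genes tested were higher and 10.5% lower. At an unadjusted p under 0.05 there was 1 of the 10, and DESeq2 called 1. Psat1 had 1.21 ± 0.50 (adjusted p = 0.104), Atf3 0.74 ± 0.36 (adjusted p = 0.164), Fgf21 0.60 (adjusted p = 0.346) and Trib3 0.34 (adjusted p = 0.396). Tumor and uninvolved samples with the same number come from the same mouse, and with the mouse as a replicate block edgeR again called 0 of the 10. That fit kept the 6 mice sampled in both groups and took uninvolved libraries 3 and 6 as separate samples. It called 1920 genes in all, against 3100 with these libraries separate and no block, and 2961 with them summed and no block.

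Leaving out mice 3 and 6, whose uninvolved libraries were nearly alike, kept 4 pairs. With that block Psat1 (1.82, adjusted p = 0.0219), Atf3 (0.95, adjusted p = 0.0261) and Trib3 (0.53, adjusted p = 0.0311) passed, so 3 of 10 were called higher, where 9.21% of the 16728 genes tested were. In each of the 4 mice (1, 5, 7 and 12) these 3 genes were higher in the tumor than in the uninvolved liver, Psat1 by 0.35 to 2.52 on the log2 scale, Atf3 by 0.52 to 1.57 and Trib3 by 0.23 to 0.78. Across these 4 mice Asns went both ways, from -1.79 to 2.76, and Atf4 ranged from -0.15 to 0.30. For the 2 mice left out, the tumors were set only against the summed uninvolved sample 3-6, so no direction is given for each mouse. Both tumors were below that sample in Psat1, Atf3 and Trib3, tumor 3 only narrowly in Trib3. The summed sample held 4.28 CPM of Psat1, 9.64 of Atf3 and 15.7 of Trib3. Tumors 3 and 6 held 2.27 and 2.03 CPM of Psat1, 5.87 and 5.08 of Atf3, and 15.3 and 9.43 of Trib3. The 3 calls and the shared direction thus hold only for the 4 pairs kept. Without uninvolved sample 3-6 and without a block, Psat1 also passed (1.94, adjusted p = 0.0099).

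**Figure D4:**
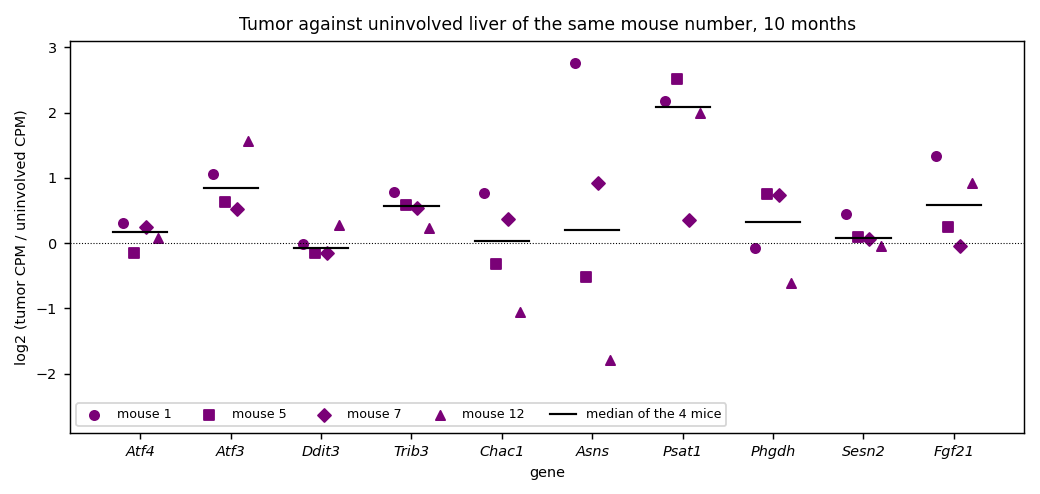
Log2 ratio of tumor to uninvolved CPM for each gene in 4 of the 6 mice with the same number in both groups (mice 1, 5, 7 and 12). A point is a mouse and the bar is the median. Mice 3 and 6, whose uninvolved libraries were summed, are not shown. Their tumors were below the summed sample in Atf3, Trib3 and Psat1, tumor 3 only narrowly in Trib3. All 4 points of Atf3, Trib3 and Psat1 lie above 0, with medians of 0.85, 0.57 and 2.08, and the points of Asns spread from -1.79 to 2.76.

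At 3 weeks TBT and vehicle livers did not separate. By edgeR 0 of 10 genes were called and 0% of 14050 genes tested, with 0 of the 10 and 474 of all at an unadjusted p under 0.05, and DESeq2 called 0 of the 10 and 2 of all. The log2 differences ran from -0.17 for Phgdh to 0.46 for Trib3. Leaving out the library labelled TBT 4, with its Xist signal, also gave 0. The spread was wide in the TBT group, where sample 5 held 12.3 CPM of Atf3 (median 1.57), 10.01 CPM of Ddit3 (median 3.59) and 26.6 CPM of Trib3 (median 4.89). Sample TBT 4 was the highest in Psat1, at 23.9 CPM (median 9.14), and in Phgdh, at 6.72 CPM (median 2.65).

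At 10 months low-risk livers and vehicles did not separate either, with 0 of the 10 genes called by edgeR and 0% of 16338. There 2 of the 10 and 688 of all genes had an unadjusted p under 0.05, and DESeq2 called 0 of the 10 and 1 of all. Asns had the largest difference, 1.85 ± 0.67, with low-risk livers 8 and 2 at 18.9 and 7.76 CPM against a vehicle maximum of 2.32 CPM.

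In vehicle livers of batch 1, Psat1 and Phgdh were lower at 5 months than at 3 weeks. From 3 weeks to 5 months 1 of 10 genes was called higher, where 11.9% of 14962 were, and 2 lower, where 12.3% were. These counts lay near the background. Psat1 ran from 7.63 to 12.5 CPM at 3 weeks (median 10.3) and from 0.489 to 4.98 CPM in the 7 vehicles of 5 months from batch 1. No value overlapped, as for 4.04% of genes tested, and Psat1 fell by 2.21 ± 0.33 on the log2 scale (adjusted p = 3.1e-05). Phgdh ran from 2.36 to 4.67 CPM at 3 weeks and from 0.0611 to 2.25 CPM at 5 months, again without overlap, and fell by 2.08 ± 0.52 (adjusted p = 0.0051). Atf4 rose by 0.30 ± 0.10 (adjusted p = 0.0352), which became 0.12 (adjusted p = 0.486) under total counts and missed the threshold without the filter (adjusted p = 0.271). Asns, at -1.34, was also called lower without vehicle 6 of 5 months (adjusted p = 0.0337).

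From 5 to 10 months 0 of the 10 were higher, where 6.68% of genes were, and 3 were lower, where 7.41% were. Psat1 fell by 1.94 ± 0.38 (adjusted p = 0.00247), Asns by 1.82 ± 0.57 (adjusted p = 0.0402) and Atf3 by 1.93 ± 0.64 (adjusted p = 0.0483). Without vehicle 6 of 5 months, which was high in both, the calls of Asns (-1.10, adjusted p = 0.136) and Atf3 (-1.04, adjusted p = 0.217) were lost, while Psat1 had -1.84 (adjusted p = 0.0058). They were also lost under total counts (adjusted p = 0.0529 and 0.0621) and without the filter on low counts (adjusted p = 0.0691 and 0.0798). Phgdh was not called in this step, and had -1.15 (adjusted p = 0.192) under total counts. Stellate and fibroblast markers summed to 747 to 1248 CPM at 3 weeks, to 113 to 431 CPM in all vehicles of 5 months and to 193 to 305 CPM at 10 months. Of the 7 tested, 6 were called lower from 3 weeks to 5 months and 3 from 5 to 10 months. Proliferation genes summed to 172 to 330, 6.84 to 115 and 5.92 to 21 CPM, with 8 of 8 called lower in the first step and 3 of 8 in the second. Their part in the changes of the 10 genes was not tested.

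Over all groups, the median of Psat1 was lowest in 10-month vehicles (0.584 CPM), followed by uninvolved livers (0.932), 10-month low-risk livers (0.996), 5-month low-risk livers (1.31) and 5-month vehicles (1.71). Neighbours among these overlapped, apart from uninvolved livers against 10-month vehicles. Tumors stood at 4.06 CPM, high-risk livers of 5 months at 8.11 and the 3-week groups at 9.14 (TBT) and 10.3 (vehicle), and the last 3 overlapped, as tumors did with high-risk livers and with 5-month vehicles. Phgdh had the same groups at the top, with medians of 3.02 CPM in 3-week vehicles, 2.65 in 3-week TBT livers and 2.22 in high-risk livers, and its lowest median, 0.284 CPM, in 5-month vehicles. Atf3 was ordered otherwise: its medians lay between 0.907 and 1.57 CPM in the vehicle, low-risk and 3-week TBT groups and at 4.46 in uninvolved livers, 7.85 in high-risk livers and 7.87 in tumors. Sesn2 had the flattest profile, with group medians from 9.41 to 12.03 CPM.

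Across 72 samples, the highest Pearson correlation of log2 CPM among the 10 genes was that of Psat1 with Phgdh (r = 0.809), followed by Atf3 with Ddit3 (0.636) and Atf3 with Trib3 (0.575). Atf4 had negative correlations with Psat1 (-0.57), Phgdh (-0.539) and Asns (-0.304). The samples share ages, groups and scaling factors, and these values are descriptions without a test. Among 9506 other genes that averaged 5 CPM or more, those most like Psat1 were Anln (0.888), a cytokinesis gene, AI506816 (0.886) and Col1a2 (0.884), a fibrillar collagen gene that also stands in the stellate list. Those most like Phgdh were Prom1 (0.849), Ptprs (0.841) and Eln (0.816), and those most like Atf3 were Klf6 (0.849), Nfkb2 (0.847) and Ddr1 (0.844). Fgf21 was most like Ehhadh (0.73), a peroxisomal oxidation gene of the PPARα list, Jun (0.694) and Jund (0.694).

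**Figure D5:**
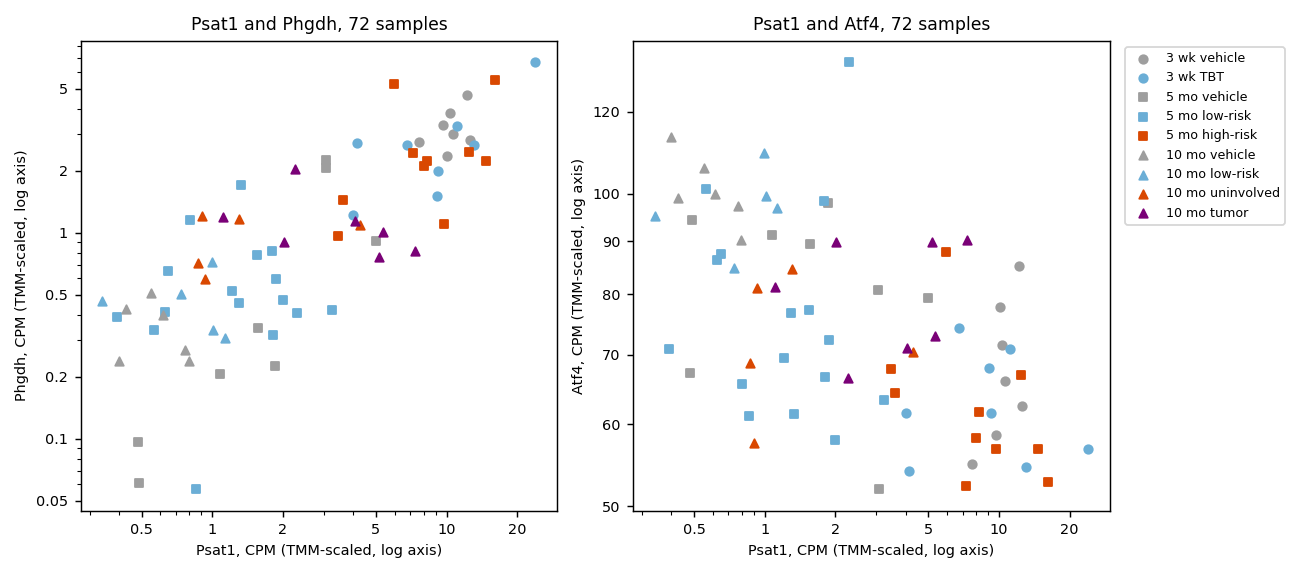
CPM of Phgdh (left) and of Atf4 (right) against Psat1 in 72 samples, TMM-scaled on log axes, with a symbol for each age and colours for the groups. Phgdh follows Psat1 (r = 0.809), with 3-week and 5-month high-risk samples at the upper right, and Atf4 tends the other way (r = -0.57).

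Of the remaining genes, Atf4 was most like Cul1 (0.821), Pex13 (0.807) and Psmc1 (0.805). Ddit3 was most like Hsd17b13 (0.669), Plekha1 (0.663) and Gsta2 (0.657), and Trib3 most like Tmprss2 (0.66), Slc20a1 (0.651) and Slc6a8 (0.638). Chac1 was most like Cdc37 (0.612), Pdap1 (0.608) and Vgll4 (0.603), and Sesn2 most like Plekhm2 (0.493), Arl4d (0.486) and Slc15a4 (0.458).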

How the data were processed

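RNA was isolated with RNeasy, DNase-treated and made into libraries with the TruSeq Stranded Total RNA kit, per the labels' protocols. The authors used Trim Galore, HISAT2 and featureCounts with mm10, per the submitters' processing notes. The deposited values are counts per gene that the authors adjusted between batches with ComBat-seq, per the file name. Their tool versions, annotation, strand setting and adjustment groups are not given in the sources used here, so antisense and overlapping reads cannot be told apart. If the adjustment kept the group as a term, the comparisons of 5 months, within a batch too, rest on counts fitted with that group, which was not tested.

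The main test was the quasi-likelihood test of edgeR 4.0.16 under R 4.3.3 (TMM factors, filterByExpr, robust fits, Benjamini-Hochberg adjustment over all genes tested, threshold 0.05), and SE was taken from the F statistic. All groups of 5 months entered 1 model that included the sequencing batch, and vehicle, low-risk and uninvolved livers of 10 months entered another. Tumors were fitted with uninvolved or with vehicle livers, and ages among vehicles of batch 1. Summing uninvolved livers 3 and 6 was decided after seeing their counts. Each model was tested on simulated data. The 10 genes and all gene lists were chosen with earlier results of these data known. Of each list, up to 4 genes with the smallest adjusted p between high-risk and low-risk livers of 5 months were named, plus any gene of a list of 6 or fewer, and for each member the 3 genes with the highest correlation, which for Asns are not reported here. Correlations used log2 CPM with a prior count of 2.

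Tumor and uninvolved samples of a mouse number were taken as pairs because their titles give the same mouse, although the correlations of their deviations ran from -0.274 to 0.648. Alternatives were RLE size factors, total counts, no filter, DESeq2 1.42.0, single batches, no batch covariate, other fits, replicate blocks and samples left out. Python 3.11.15, pandas 2.3.3 and matplotlib 3.10.9 were used for tables and figures.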

Additional observations from a re-analysis of the deposited data

Results flagged for a closer look

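In 13 of 80 sets of a gene in a group of 4 to 10 samples, the highest or lowest sample lay further from the others than Dixon's 95% critical value allows. Chance would give about 1 in 20 if the CPM values were normally distributed and the sets independent. Neither was tested, so 13 of 80 is no measure of an excess. At 3 weeks these were TBT sample 5 in Atf3 (12.3 CPM) and Ddit3 (10.01 CPM) and TBT sample 4, the library with the Xist signal, in Psat1 (23.9 CPM) and Phgdh (6.72 CPM). At 5 months they were vehicle 6 in Atf3 (11.5 CPM) and Asns (18.9 CPM) and high-risk liver 1 in Atf4 (87.9 CPM). At 10 months they were low-risk liver 8 in Chac1 (5.97 CPM) and Sesn2 (11.6 CPM), uninvolved sample 3-6 in Psat1 (4.28 CPM) and Fgf21 (29.6 CPM), tumor 11 in Ddit3 (8.49 CPM) and tumor 3 in Phgdh (2.03 CPM). Each was the highest of its group. High-risk liver 1 of 5 months, the highest in Atf4, was also the lowest of its group in Atf3, at 1.07 CPM.

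The vehicle library labelled as a tumor, which entered no comparison, was above all 6 vehicle livers of 10 months in Atf3 (2.50 CPM), Asns (4.85 CPM), Psat1 (2.35 CPM) and Phgdh (0.703 CPM). It was below all of them in Atf4 (44.6 against at least 90.3 CPM) and in Ddit3 (2.42 against at least 4.63 CPM), and within their range in the other 4 genes. This library is 1 of the 6 that deviated technically, with 14.06% mitochondrial counts.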

How the results depend on the processing

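Of the values of single genes under an alternative, 1362 kept their side of the threshold, 51 lost a call and 24 gained one. In 0 cases did the direction change with a call in either fit. A change of direction in a gene called in neither fit was counted among the 1362. Counts of called genes were within 1.5 times the reported count in 229 cases. The causes of the changes below were not tested. Total counts, leaving out vehicle 6 or low-risk 24 of 5 months, the blocks for low-risk against vehicle livers of 10 months and for ages, and the list alternatives were chosen after seeing the data.

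Among the 10 genes, high-risk against low-risk livers of 5 months gave 8 calls, and 1 within batch 1. High-risk against vehicle livers gave 4 calls, 1 without the filter on low counts, 1 in a fit of these groups only and 0 within batch 1. Uninvolved against low-risk livers gave 4, and 7 under total counts. Total counts also moved the median log2 change of all genes there from 0.05 to 0.30, so the 7 are not particular to these genes. Uninvolved against vehicle livers gave 5, and 3 when the vehicle library with the tumor label joined the vehicles. Tumors against uninvolved livers gave 0, 1 with DESeq2, 1 in a fit of all 10-month groups, and 0 to 1 with each uninvolved sample left out. Vehicles of 10 against 5 months gave 3, 1 without the filter, 1 under total counts and 1 without vehicle 6 of 5 months. The interaction gave 0, and 0 to 1 with each sample of 10 months left out.

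Without the filter on low counts, all genes called went from 2341 to 1211 (high-risk against vehicle), 3616 to 2172 (vehicles of 5 months against 3 weeks), 2107 to 1128 (10 against 5 months), 62 to 10 (interaction) and 0 to 3 (3 weeks). With DESeq2 they were 52 (low-risk against vehicle, 5 months), 1 (same at 10 months), 2 (3 weeks), 3438 (10 against 5 months) and 359 (interaction). Without the deviating libraries they were 1, 3448, 5790 and 204 for low-risk against vehicle at 5 months, 10 against 5 months, 5 months against 3 weeks and the interaction. Total counts gave 4947 (high-risk against vehicle), 1 (low-risk against vehicle) and 106 (interaction), RLE size factors 96 for the interaction, libraries 3 and 6 as separate samples 106, and leaving out low-risk 24 of 5 months 142. Within batch 1, 773 genes were called between high-risk and low-risk livers, of 5745, and 0 between high-risk and vehicle livers, which a fit of these groups only took to 1338. Low-risk against vehicle livers gave 20 without the batch covariate. Tumors against uninvolved livers gave 2961, 5346 in a fit of all 10-month groups, and 1580 to 3948 with an uninvolved sample left out (without 1 and without 3-6). Adding the vehicle library with the tumor label to the vehicles took uninvolved against vehicle from 9427 to 6019 and tumors against vehicle from 7016 to 4206. The interaction gave 5 to 51 with a sample of 10 months left out (without low-risk 4 and without uninvolved 3-6).

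Whether shared numbers between other groups mark pairs could not be told from the correlations of same-numbered deviations. These ran from -0.189 to 0.453, within the range of the tumor and uninvolved samples of the same mouse (-0.274 to 0.648). The fits with the number as a replicate block kept only samples with a shared number and took uninvolved libraries 3 and 6 as separate samples, so they changed more than the block. They gave 0 calls among the 10 genes for high-risk against vehicle (3 pairs, 0 of all genes). For uninvolved against vehicle (4 pairs) they gave 3, where 23.2% of the 16413 genes tested were called higher and 22.6% lower. For vehicles of 10 against 5 months (5 pairs) they gave 0, where 4.99% of genes were called higher and 5.66% lower. For tumors the block gave 1920 genes against uninvolved and 3972 against vehicle livers. Without mice 3 and 6 it gave 3 of the 10 genes against uninvolved livers, where 9.21% of genes were called higher and 8.95% lower. Depth limits Phgdh and Psat1, which had 1 to 23 and 5 to 34 reads per low-risk sample of 5 months.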

Other observations

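The 10 genes were not highest in the same samples. TBT sample 5 of 3 weeks, vehicle 1 of 3 weeks and low-risk liver 8 of 10 months were each the highest of their group in 6 of the 10 genes, and vehicle 6 of 5 months, uninvolved sample 3-6 and tumor 11 in 5. In low-risk liver 8 of 10 months, Asns was at 18.9 CPM while Fgf21, at 4.02 CPM, was the lowest of its group.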
